A study of Homo sapiens with 16 samples.

Results

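The keratins of SUM-225 cells were followed through 45 h of HER2 kinase inhibition. The family was taken as every probe of the array table whose gene symbol is KRT followed by a number and at most 1 letter, without keratin-associated proteins and pseudogenes. This gave 35 of 24526 probes, for 34 of 18631 symbols. A probe was called detected on an array when its detection p-value, which ranks its signal among the negative control probes of that array, was under 0.05. Of the 35 probes, 23 (22 symbols) were detected on at least 3 of the 16 arrays and were tested. The other 12 were detected on 0 arrays.

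SUM-225 is a human breast cancer line with amplified and over expressed HER2, and CP724,714 is a compound that blocks the HER2 kinase. Cells received 1 µM CP724,714, and parallel cultures were harvested at 3 h intervals from 0 h, the only array without time in the inhibitor, to 45 h. Each of the 16 time points was a single culture on a single Illumina bead array, so no time point had a replicate. According to the labels the medium held serum, insulin and hydrocortisone, whereas the methods of the study describe growth of this line in serum-free medium without insulin. The 16 samples hold no untreated series of harvests. The effect of the inhibitor and that of time in culture cannot be told apart, and all results are for 1 cell line.

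Keratins are the intermediate filament proteins of epithelial cells. A filament is built from pairs of a type I (acidic) and a type II (basic) keratin, and the pair in use marks the kind of epithelium. KRT8, KRT18, KRT19 and KRT7 mark simple epithelia and the luminal cells of the mammary gland, while KRT5, KRT14, KRT15 and KRT17 mark basal cells. KRT6 isoforms and KRT16 appear in stratified epithelia under stress and in fast proliferation, KRT4 and KRT13 pair in the upper layers of mucosal squamous epithelium, KRT1 and KRT10 in the differentiating epidermis. KRT81 to KRT86 and their type I partners are the hard keratins of the hair shaft.

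Among the tested probes, 5 belonged to simple or luminal keratins, 4 to basal, 10 to squamous, 2 to hair and 2 to other epithelial keratins (KRT23 and KRT24). The class was assigned from the gene's usual tissue and not from these data. Of the 23 tested, 19 were detected on all 16 arrays. The exceptions were KRT3 on 10 arrays, KRT1 and KRT40 on 6 each and KRT14 on 3, and values of these probes were close to background. Of the 12 probes that were not tested, 6 belonged to hair or hair follicle keratins (KRT25A, KRT25C, KRT25D, KRT26, KRT33A and KRT39), 5 to squamous keratins (KRT12, KRT1B, KRT2A, KRT2B and KRT6L), and the last was KRT20.

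The labelled identity was checked against marker genes, with the summed level of a list given as linear normalized signal. The HER2 amplicon genes ERBB2, GRB7, STARD3 and PERLD1 and the epithelial genes CDH1, CLDN4, CLDN7, ELF3 and TACSTD1 (the older symbol of EPCAM) were detected on all 16 arrays. Of 7 fibroblast markers, COL3A1, DCN, LUM, PDGFRB and FAP were detected on 0 arrays and COL1A1 and COL1A2 on 5 each, and the summed level of that list was 285 to 371. Of the leukocyte markers reported here, PTPRC was detected on 0 arrays and CD3E on 1, while CD14, CD68 and LCP1 were detected on all 16, with linear changes of 0.34, 0.38 and -1.43. Of 4 endothelial markers PECAM1 was detected on all 16 arrays, VWF on 13 with a linear change of 2.51, KDR on 4 and CDH5 on 1 (summed level 329 to 532). Of 4 melanocyte markers SILV was detected on all 16 arrays and the other 3 on 0 (summed level 201 to 292). Of 5 basal or myoepithelial markers, TP73L (the older symbol of TP63, a transcription factor of basal epithelial cells) and CNN1 were detected on 0 arrays, so the basal keratins described here were measured where the probe of that factor gave no detectable signal. Of the other 3 markers of that list, ACTA2 and OXTR were detected on all 16 arrays and fell over time. MYLK was detected on only 6 arrays, so its linear estimate of -1.44 is a description. The summed level of the basal or myoepithelial list was 1130 to 2240 over the arrays from 0 to 21 h and 582 to 1130 over those from 24 to 45 h. The part of any of these lists in the changes of keratins was not tested. In RNA of whole cultures, fewer cells of a type and less RNA per cell cannot be told apart.

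Promoter sequences are shown for 3 members that took different courses and were held by the sequence table used, KRT5 (which fell), KRT4 (which rose) and KRT10 (without a linear trend). Of the 22 tested symbols, 8 had an entry. The sequences are the 250 bases before the annotated start of RefSeq (build GRCh38.p14, minus strand of the genome), at chr12:52520395-52520644 for KRT5, chr12:52814117-52814366 for KRT4 and chr17:40822615-40822864 for KRT10, written 5′ to 3′ in the direction of the gene. Capitals mark a TATA box motif (TATAAA, sense strand).
KRT5: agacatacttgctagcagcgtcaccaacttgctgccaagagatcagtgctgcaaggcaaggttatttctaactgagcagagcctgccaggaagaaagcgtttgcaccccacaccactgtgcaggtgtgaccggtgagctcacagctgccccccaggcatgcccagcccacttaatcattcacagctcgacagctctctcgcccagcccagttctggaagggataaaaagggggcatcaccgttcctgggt
KRT4: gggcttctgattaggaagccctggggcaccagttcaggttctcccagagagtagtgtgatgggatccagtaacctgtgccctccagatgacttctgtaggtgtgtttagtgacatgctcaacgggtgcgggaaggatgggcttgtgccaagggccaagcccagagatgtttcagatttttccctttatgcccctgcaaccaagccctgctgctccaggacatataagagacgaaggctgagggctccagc
KRT10: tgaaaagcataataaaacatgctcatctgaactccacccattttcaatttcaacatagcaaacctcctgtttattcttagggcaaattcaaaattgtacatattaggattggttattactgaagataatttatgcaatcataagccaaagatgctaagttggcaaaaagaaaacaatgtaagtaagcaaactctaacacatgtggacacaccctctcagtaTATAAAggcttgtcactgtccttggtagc
The TATA motif was found in 3 of the 8 keratin promoters (KRT3, KRT10 and KRT24) and in 7.17% of 27305 promoters of the same length. Its letters lie 29 bases before the start in KRT10 and are not in the windows of KRT4 and KRT5. Only these exact letters were searched, so their absence does not show that KRT4 and KRT5 lack a TATA box. The AP-1 motif TGACTCA, searched on both strands, was in none of the 8 windows and in 4.16% of all promoters.

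The first question was how many keratins changed with time in the inhibitor, and in which direction. Values are log2 of the background-corrected and quantile-normalized signal. Each probe was fitted with a cubic course in hours by limma, with p-values adjusted over all 16110 probes tested, and the linear change is the fitted straight-line part of the course over 45 h. A linear fall was found for 9 of the 23 keratin probes (39.1%), against 21.7% of all probes tested. A linear rise was found for 3 of 23 (KRT15, KRT4 and KRT40), against 26.0%. KRT40 was detected only on arrays from 24 h and so passed the filter through the arrays where it was high, which makes its rise a description. Over the 19 keratin probes detected on all 16 arrays, 2 rose and 9 fell. The course was time-dependent for 16 keratin probes (69.6%), against 51.3%, and departed from a straight line for 12 (52.2%), against 19.3%. Both counts include KRT1, detected only on arrays from 21 h, and the first also includes KRT40. Of the 19 keratin probes detected on all 16 arrays, 14 were time-dependent (73.7%) and 11 departed from a straight line (57.9%). The median linear change was -0.11 log2 units over the keratin probes and 0.05 over all probes tested, with a range among keratins from -4.56 (KRT86) to 2.0 (KRT4).

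Some courses moved in steps, so 2 further fits asked whether a trend was also present between steps. The arrays were taken as 4 consecutive sets (0 to 9, 12 to 21, 24 to 33 and 36 to 45 h), a grouping that the labels do not give. With the set as a factor, which leaves only changes within 9 h and larger errors, 2 keratin probes fell, KRT17 and KRT86, against 0.478% of all probes. Every estimate of that fit is the common slope within the sets, scaled to 45 h. In that fit 0 keratin probes rose (limma, 2 at an unadjusted p under 0.05), against 0.422%. With a single step between 21 and 24 h in the fit, 8 keratin probes fell (9.17% of all probes) and KRT15 alone rose (a rise seen for 1615 of 16110 probes, or 10%). The last 8 arrays were all below the first 8 for 6 keratin probes, KRT86, KRT17, KRT6A, KRT6B, KRT6E and KRT16, against 2.67% of all probes, and all above them for KRT4, and for KRT40 with the limit given above, against 3.71%.

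**Figure D1:**
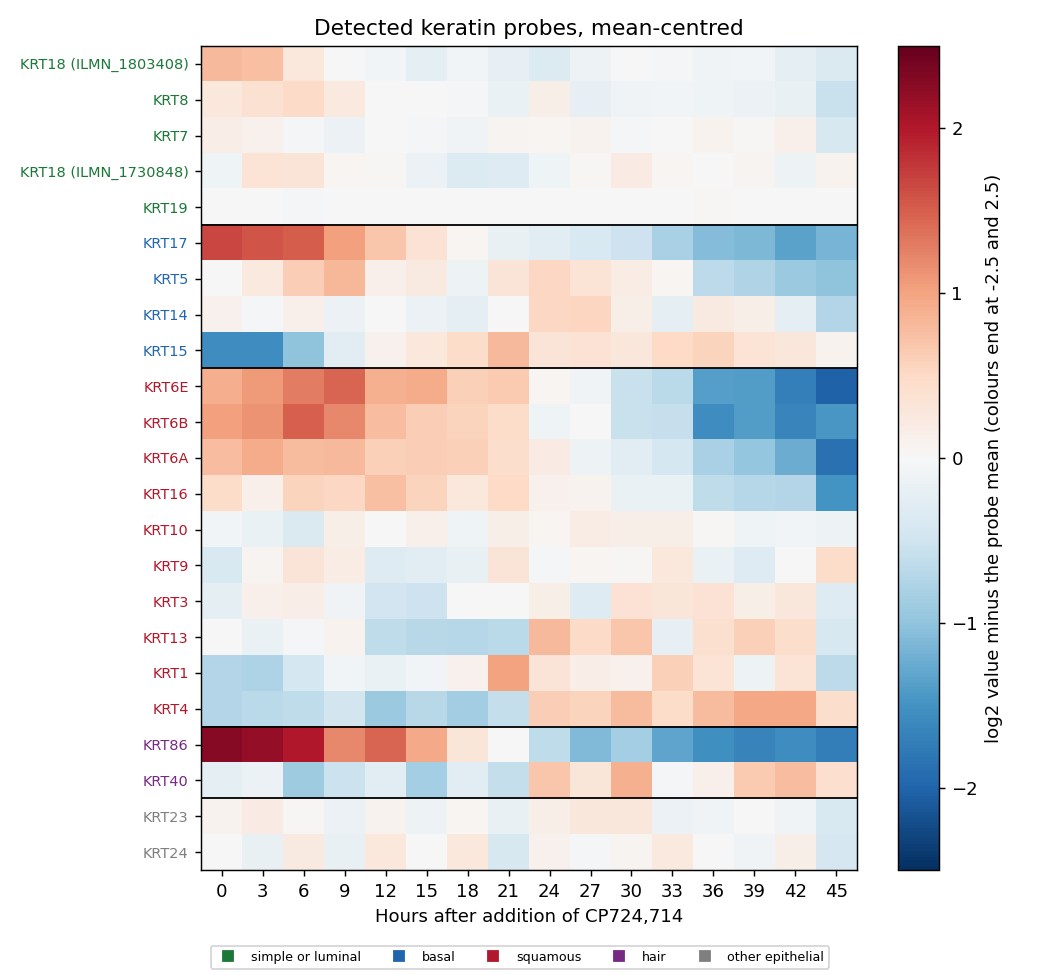
Each row is 1 of the 23 detected keratin probes and each column 1 array (hours after addition of CP724,714), coloured by the log2 value minus the mean of the probe, with rows grouped by keratin class. KRT86, KRT17 and the KRT6 probes pass from high (red) to low (blue), while KRT15 and KRT4 pass from low to high at different times.

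**Figure D2:**
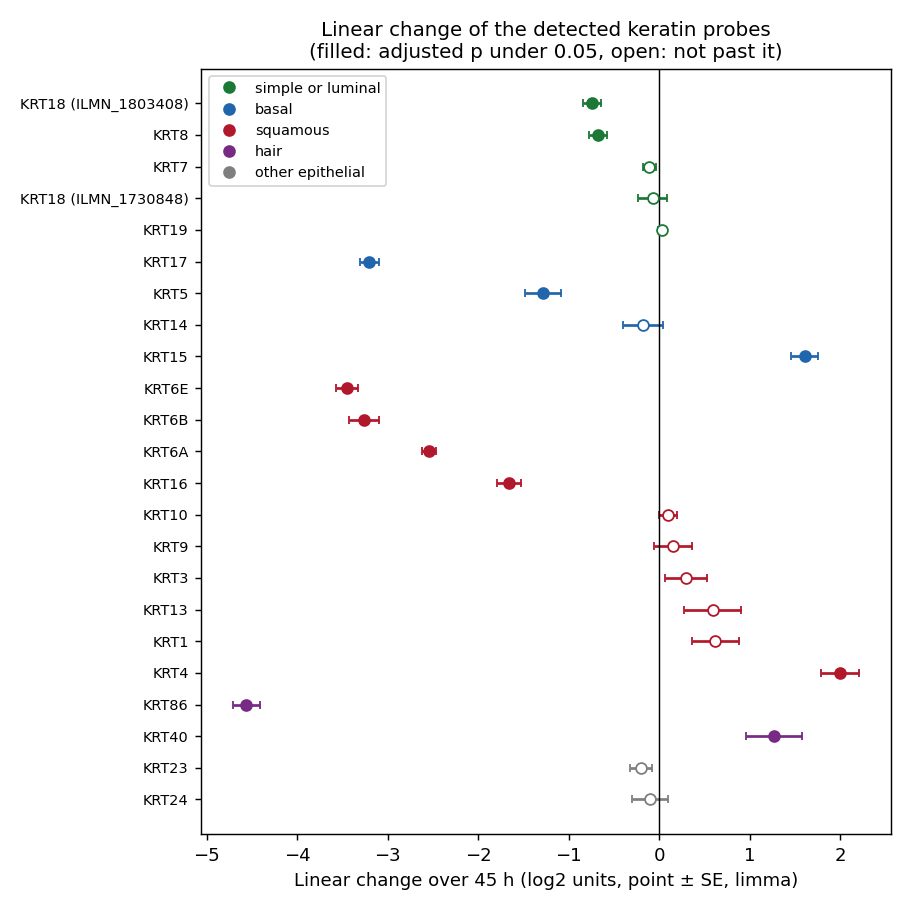
Linear change over 45 h in log2 units for each detected keratin probe, as the limma estimate with its standard error, coloured by class and filled where the adjusted p was under 0.05. The 9 falling probes span -4.56 to -0.68 and the 3 rising ones 1.27 (KRT40, detected only from 24 h) to 2.0 (KRT4).

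The classes did not move as units. Of the 10 squamous probes 4 fell (KRT6A, KRT6B, KRT6E and KRT16), 1 rose (KRT4) and 5 had no linear trend. Of the 4 basal probes 2 fell (KRT17 and KRT5), 1 rose (KRT15) and KRT14 had no trend. Of the 5 simple keratin probes 2 fell (KRT8 and 1 of the KRT18 probes) and 0 rose (0 also at an unadjusted p under 0.05 in limma). Of the 2 hair probes KRT86 fell, and KRT40 was detected only from 24 h. Split by filament type, 6 of 10 type II probes (60.0%) and 3 of 13 type I probes (23.1%) fell. Over all probes tested 21.7% fell and 26.0% rose, so the type I share was near that of all probes. The type II falls include the close paralogs KRT6A, KRT6B and KRT6E, and the difference between types was not tested. In the RefSeq gene order the type II genes lie together on chromosome 12 and the type I genes on chromosome 17, except KRT18, which lies beside KRT8 on 12. The falling genes KRT6B, KRT6C, KRT6A and KRT5 are consecutive keratin genes on chromosome 12, and KRT16 and KRT17 are neighbours on chromosome 17.

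The hair keratin KRT86, a type II keratin of the hair cortex, had the deepest fall among the 23 tested probes. In the set from 0 to 9 h its log2 values were, in order of time, 12.68, 12.60, 12.42 and 11.61, and in the set from 12 to 21 h they were 11.86, 11.36, 10.72 and 10.40. The set from 24 to 33 h had 9.78, 9.30, 9.57 and 9.10, and the set from 36 to 45 h had 8.88, 8.75, 8.85 and 8.69. The first 8 arrays were all above the last 8, the value was at least 1 log2 unit below 0 h on every array from 15 h, and the last 4 arrays differed by less than 0.20. Over 45 h the linear change came to -4.56 ± 0.15 log2 units (SE; limma, adjusted p = 1.13e-13), with a departure from a straight line (adjusted p = 0.00234), and the signal at 0 h was 15.9-fold that at 45 h. KRT86 was lower at the end than at the start of each of the 4 sets. From start to end of the sets it differed by -1.07, -1.46, -0.68 and -0.18. With the set as a factor its change, scaled to 45 h, was -4.00 ± 0.80 (SE) and still past the threshold.

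Close relatives of KRT86 carry older names on this array and lie outside the rule. KRTHB1, which RefSeq lists as a synonym of both KRT81 and KRT86 and which was therefore not renamed, had log2 values between 15.02 and 16.07. Its linear change was -0.84 ± 0.10 (SE, limma, adjusted p = 1.69e-06), but its signal reached 94.0% of the brightest on its array, near the top of the measured range. KRTHB3 (KRT83 in RefSeq) was detected on 11 arrays with a linear change of -0.97 ± 0.24 (adjusted p = 0.00255). KRTHA7 (KRT37), on 10 arrays, changed by 0.32 ± 0.21 and K6IRS2 (KRT72), on 3 arrays, by 0.33 ± 0.32, neither past the threshold. The other 15 probes under such names were detected on 2 arrays or fewer. The sequences of KRT81, KRT83 and KRT86 are closely similar, and their probes can share transcripts.

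**Figure D3:**
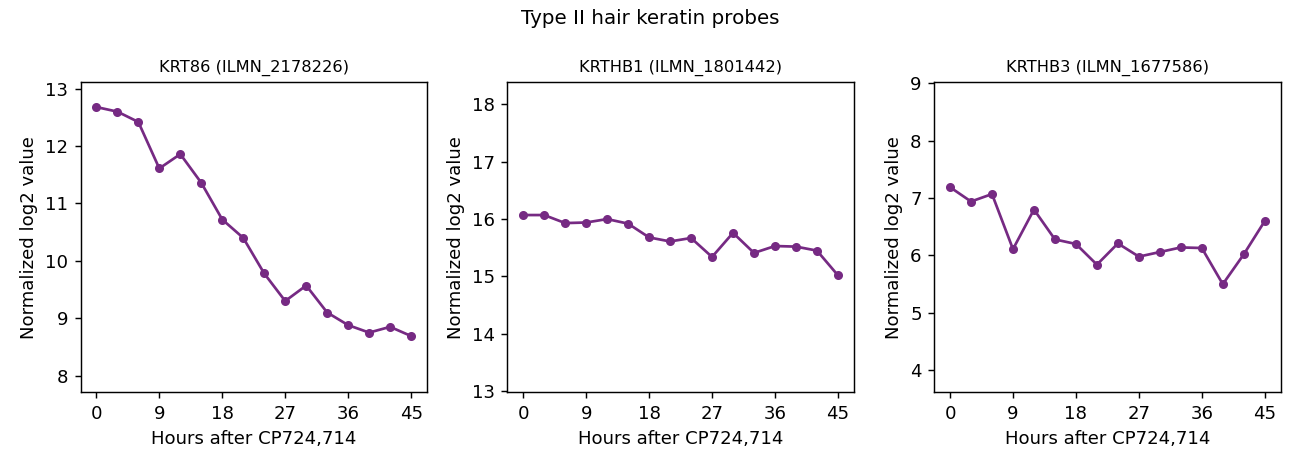
Normalized log2 value of the probes for KRT86, KRTHB1 and KRTHB3 on each array against hours after addition of CP724,714, on vertical axes of equal span. KRT86 fell from 12.68 to 8.69, while KRTHB1 moved between 15.02 and 16.07 and KRTHB3 between 5.50 and 7.19.

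KRT40, a type I hair keratin, was at the limit of detection. It was not detected at any time up to 21 h, and was detected at 24, 27, 30, 39, 42 and 45 h, with log2 values of 4.95 to 5.68 over the first 8 arrays and 5.79 to 6.72 over the last 8. Its linear estimate was 1.27 ± 0.31 (SE), given without a test because KRT40 entered the tested probes only through late arrays. Against 0 h, where it was not above background, the value at 45 h was at least 1.16-fold higher, measured from the lowest detected signal of the 0 h array. The change was 0.47 without background correction and had the opposite sign, -0.28 ± 0.71, with a step between 21 and 24 h in the fit.

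Among basal keratins KRT17, the type I keratin also induced in injured epithelium, fell most. Its log2 value was 14.29, 14.20, 14.15 and 13.65 from 0 to 9 h, 13.33 down to 12.45 from 12 to 21 h (with 12.68 on the 18 h array), 12.35, 12.24, 12.12 and 11.81 from 24 to 33 h, and 11.54, 11.50, 11.30 and 11.46 from 36 to 45 h. Each array up to 42 h was below the one before it. KRT17 changed linearly by -3.20 ± 0.10 log2 units (SE; limma, adjusted p = 7.87e-14). Its signal at 0 h was 7.11-fold that at 45 h. KRT17 was lower at the end than at the start of all 4 sets, and with the set as a factor its change was -2.66 ± 0.47 and past the threshold. KRT17 and KRT86 were the first of the falling keratins to stay at least 1 log2 unit below their 0 h value, both from 15 h.

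KRT5, the type II keratin of basal cells, was highest at 9 h and lowest at the end. Over the first set its log2 values were 12.03, 12.28, 12.64 and 12.86 in order of time. It lay between 11.89 and 12.54 from 12 to 33 h and between 11.03 and 11.38 from 36 to 45 h. Of the 15 later arrays, 10 were above 0 h, and the 4 lowest values were those of the last 4 arrays. KRT5 had a linear change of -1.28 ± 0.20 (SE, limma, adjusted p = 2.36e-05), with a departure from a straight line (adjusted p = 0.0151). KRT5 dropped by 0.70 between 9 and 12 h and by 0.70 between 33 and 36 h, and its change was 0.09 ± 0.71 with the set of 4 arrays as a factor. KRT14, the usual type I partner of KRT5, was detected only at 24, 27 and 36 h and passed the filter through those arrays, with log2 values between 5.15 and 6.43 and a linear change of -0.18 ± 0.22 (adjusted p = 0.529).

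KRT15, a type I basal keratin that is also found in stem cells of the hair follicle, went the other way. From 0 to 9 h its log2 values were 10.62, 10.63, 11.17 and 11.90, and from 12 to 21 h they were 12.28, 12.45, 12.64 and 12.99. From 24 to 45 h it lay between 12.27 and 12.74. All 15 later arrays were above 0 h, and the highest was that of 21 h. Its linear change was 1.61 ± 0.15 (SE, limma, adjusted p = 5.98e-08), the departure from a straight line had an adjusted p of 3.35e-05, and KRT15 stayed at least 1 log2 unit above 0 h from 9 h. Its change with the set as a factor, 2.16 ± 0.86, was no longer past the threshold. With a step between 21 and 24 h in the fit it was 2.68 ± 0.29 and past it.

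The KRT6 isoforms and KRT16 fell later than KRT17 and KRT86. KRT6A had log2 values between 15.10 and 15.43 from 0 to 18 h, then 14.94 at 21 h, 14.72, 14.38, 14.25 and 14.07 from 24 to 33 h and 13.69, 13.54, 13.27 and 12.65 from 36 to 45 h. KRT6B was highest at 6 h (11.66) and KRT6E, which is KRT6C in RefSeq, at 9 h (13.23). All 3 were higher at 3 h than at 0 h, by 0.09 to 0.17 log2 units, and all 3 had every array from 24 h below every earlier one.

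Linear changes were -2.54 ± 0.08 (SE) for KRT6A (limma, adjusted p = 3.47e-14), -3.26 ± 0.17 for KRT6B (adjusted p = 2.58e-11) and -3.45 ± 0.12 for KRT6E (adjusted p = 1.32e-13). The signal at 0 h was 6.16-fold, 5.60-fold and 7.61-fold that at 45 h. KRT6B stayed at least 1 log2 unit below 0 h from 24 h, and KRT6A and KRT6E did so from 30 h. The isoforms are close paralogs, so their probes may not be independent. KRT16, the type I partner of KRT6, was highest at 12 h (12.53), stayed between 11.61 and 11.89 from 24 to 33 h and reached 10.29 at 45 h. Its linear change was -1.66 ± 0.13 (adjusted p = 6.12e-09), and it stayed at least 1 log2 unit below 0 h from 36 h. With the set of 4 arrays as a factor these 4 probes kept a negative change (-2.24, -0.78, -1.50 and -1.55 for KRT6A, KRT6B, KRT6E and KRT16), none past the threshold.

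**Figure D4:**
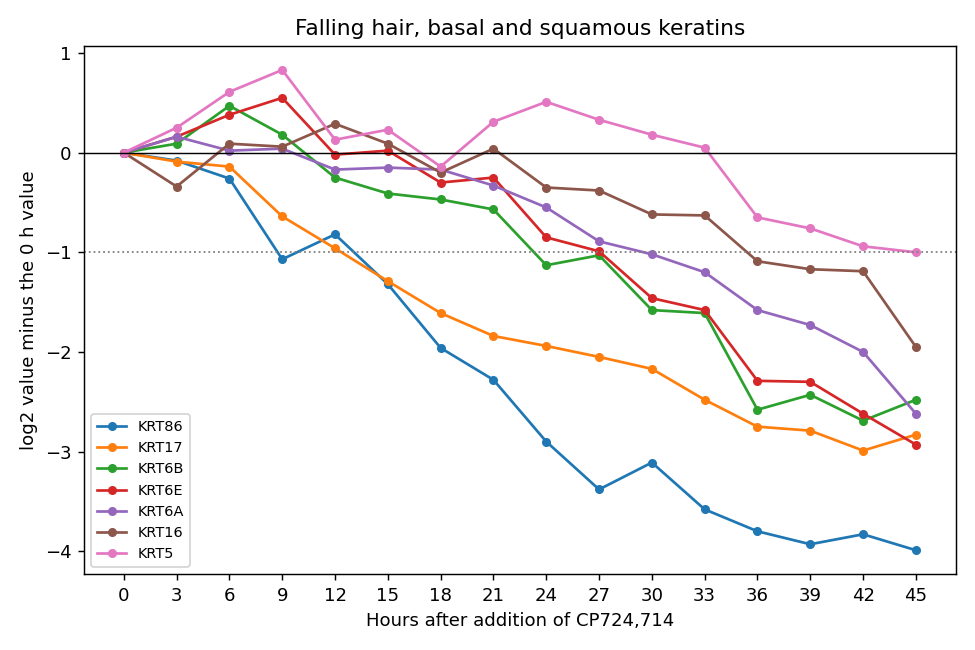
Log2 value minus the 0 h value of 7 falling keratins on each array against hours after addition of CP724,714, with a dotted line at 1 log2 unit below 0 h. KRT86 and KRT17 stay below that line from 15 h, KRT6B from 24 h, KRT6A and KRT6E from 30 h and KRT16 from 36 h, while KRT5 was at its highest at 9 h.

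The mucosal keratins KRT4 and KRT13 shared a different feature. KRT4 had log2 values of 11.74, 11.80, 11.84 and 12.01 from 0 to 9 h and 11.54, 11.79, 11.60 and 11.87 from 12 to 21 h, and then 13.09, 13.04, 13.26 and 12.94 from 24 to 33 h and 13.27, 13.44, 13.45 and 12.92 from 36 to 45 h. The last 8 arrays were all above the first 8, which was so for 3.71% of all probes tested, and most of the difference arose in the single interval from 21 to 24 h (1.22 log2 units). A step upwards of at least that size in this interval was seen for 0.416% of all probes. Such a share was computed only for KRT4 and KRT13, each at the size of its own step, and is a description. Over all 16 arrays the linear change of KRT4 was 2.0 ± 0.21 (SE, limma, adjusted p = 2.78e-07). Within the sets of 4 arrays it was 0.14 ± 0.53, and beside a step between 21 and 24 h it was 0.29 ± 0.35, neither past the threshold.

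KRT13, the type I partner of KRT4, had log2 values of 8.83 to 9.10 from 0 to 9 h, 8.29 to 8.37 from 12 to 21 h and 8.80 to 9.82 from 24 to 33 h. It stepped up by 1.49 log2 units from 21 to 24 h, a step reached by 0.13% of all probes, which is likewise a description. At 36, 39 and 42 h its values were 9.41, 9.59 and 9.45, above its 0 h value of 8.99. At 45 h it stood at 8.60, below that value. The course was time-dependent (limma F-test, adjusted p = 0.0434). KRT13 had a linear change of 0.59 ± 0.31 (adjusted p = 0.122), not past the threshold over 16 arrays. Without the 45 h array it was 0.89 and past it. KRT40 also stepped up between 21 and 24 h, by 1.29, and KRT15 stepped down by 0.49. No label says whether arrays up to 21 h and from 24 h were processed apart, and the part of such a division in these steps was not tested.

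**Figure D5:**
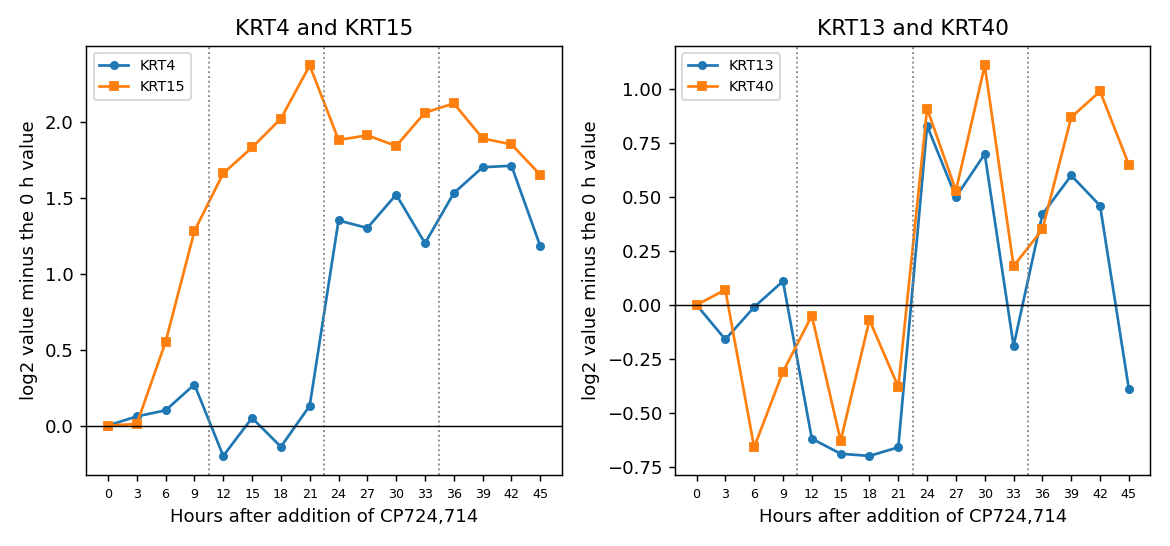
Log2 value minus the 0 h value of KRT4 and KRT15 (left) and KRT13 and KRT40 (right) against hours after addition of CP724,714, with dotted lines between the sets of 4 arrays. KRT15 climbs before 21 h, and KRT4, KRT13 and KRT40 step up between 21 and 24 h, by 1.22, 1.49 and 1.29.

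None of the other squamous keratins had a linear trend past the threshold. The courses of KRT10 and KRT1 were still called time-dependent (limma F-test, adjusted p = 0.0482 and 0.00386), for KRT1 with the limit given below. KRT10, a keratin of the upper epidermis, moved between 13.05 and 13.60, with a linear change of 0.10 ± 0.10 (adjusted p = 0.434). Its partner KRT1 was not detected before 21 h and only on 6 arrays, with a linear change of 0.62 ± 0.26 (adjusted p = 0.0551). Without the 45 h array it was 1.04 and past the threshold, as it was without the 21 h or the 39 h array (0.63 and 0.72). It was also past the threshold without background correction, where the estimate was 0.24, and without the filter on detection (0.62). KRT1, like KRT40, passed that filter only through later arrays, those from 21 h. KRT9, a keratin of palms and soles, and KRT3, a corneal keratin, gave estimates of 0.15 ± 0.21 and 0.30 ± 0.23. KRT23 (-0.20 ± 0.12) and KRT24 (-0.10 ± 0.20) also had no linear trend.

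The simple keratins that mark luminal cells had linear changes between -0.74 and 0.03 log2 units. KRT8 had log2 values of 14.02 to 14.24 from 0 to 9 h, 13.61 to 13.78 from 12 to 21 h, 13.56 to 13.92 from 24 to 33 h and 13.21 to 13.67 from 36 to 45 h. The lowest of the first 4 arrays was above every later array. KRT8 had a linear change of -0.68 ± 0.10 (SE, limma, adjusted p = 2.14e-05), and no departure from a straight line was detected (adjusted p = 0.519). The value at 0 h was 1.77-fold that at 45 h.

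KRT18, the partner of KRT8, had 2 probes that disagreed. The probe ILMN_1803408 had log2 values of 10.71, 10.65, 10.17 and 9.89 from 0 to 9 h and lay between 9.54 and 9.91 on every later array, so it reached its later level by 9 h. Its linear change was -0.74 ± 0.10 (SE, limma, adjusted p = 7.73e-06), with a departure from a straight line (adjusted p = 0.000544). The probe ILMN_1730848 moved between 8.21 and 8.90, was higher at 3 h than at 0 h, and changed by -0.07 ± 0.16 (adjusted p = 0.746). The call on KRT18 therefore rests on 1 probe, and it was not past the threshold with a step between 21 and 24 h in the fit (-0.56 ± 0.27).

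KRT7 had log2 values between 15.45 and 15.76 up to 42 h and 15.20 at 45 h. Its linear change was -0.11 ± 0.07 (adjusted p = 0.256), with a departure from a straight line (adjusted p = 0.0195). KRT19 lay between 16.06 and 16.13 and changed by 0.03 ± 0.04 (adjusted p = 0.594). Its signal reached 99.3% of the brightest on its array, and that of KRT7 88.3%, so both lay near the top of the measured range, where a change can be compressed.

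Beside the keratins, 4 gene lists were described: filament partners, cornified envelope and differentiation genes, other intermediate filament genes and transcription factors. Of 14 tested filament partners (desmosomal proteins, plakins and other binding proteins) 3 rose and 2 fell, with a median linear change of 0.09. Among the genes past the threshold, DSC2, a desmosomal cadherin, rose most (0.41 ± 0.09), and PKP1, a desmosomal plaque protein of stratified epithelia, fell most (-1.28 ± 0.20). Of 15 tested genes of the cornified envelope and keratinocyte differentiation 4 rose and 8 fell (median -0.56), with CNFN, the cornified envelope protein cornifelin, rising most (1.44 ± 0.12) and SPRR2D falling most (-4.84 ± 0.33, detected on 15 arrays). Of 10 other intermediate filament genes 6 fell and 0 rose (0 also at an unadjusted p under 0.05, limma), with a median of -0.74. Among these 6, NES was detected on only 7 arrays and PRPH on 14, so their falls are descriptions. With only probes detected on all 16 arrays, 4 genes of this list had a linear trend. LMNB1, the nuclear lamin B1, fell most (-2.57 ± 0.23).

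Of 18 transcription factors of epithelial keratin programmes 12 rose and 0 fell (0 also at an unadjusted p under 0.05, limma), with a median of 0.40. ELF3, an epithelial ETS factor, rose most (1.85 ± 0.13). Only 7 of the 18 were past the threshold under cyclic loess normalization or without the 3 h array. Over all probes tested, 26.0% rose and 21.7% fell.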

How the data were processed

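The members and the gene lists were chosen with earlier results of these data known. RNA of 16 parallel cultures, 1 per time point, was measured on 16 arrays. The deposited table holds linear signal intensity, which the authors had neither background-corrected nor normalized, and for each array a p-value of detection. The methods of the study name the Illumina human Ref8v2 array, in a passage on MCF10A and its derived lines. Scanning software and genome build were not given in the sources used here. Median signal was 242 to 384 and 14110 to 15073 probes were detected per array. The number of arrays limits the precision.

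Signals were corrected by normexp on negative controls whose mean and SD were inferred from those p-values (offset 16), quantile normalized and log2 transformed (limma 3.58.1, R 4.3.3). The 16110 probes detected (p under 0.05) on 3 arrays or more were fitted with a cubic polynomial in hours (lmFit, eBayes with trend). F-tests of all 3 coefficients and of the higher 2 gave time dependence and curvature. Tests were two-sided, with Benjamini-Hochberg adjustment over all probes and a threshold of 0.05. The error comes from deviations around the fitted course. The fit was tested on simulated data. Every tested keratin probe is named, and of each partner list the gene with the largest rise and fall among those past the threshold, using the brightest probe. The hour from which a probe stayed 1 log2 unit from 0 h was a measure chosen after the values were seen. Older symbols were matched to RefSeq (GRCh38.p14) synonyms held by 1 gene. Alternatives covered background, offset, normalization, filter, time course, steps and each array left out. Figures used matplotlib 3.10.9. One leukocyte marker is not reported here.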

Additional observations from a re-analysis of the deposited data

How the results depend on the processing

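All 12 linear calls on keratin probes held without background correction, with an offset of 50, under median scaling and under cyclic loess. The 12 include KRT40, which entered the tested probes only through late arrays, so its call remains a description in each setting. These settings moved the median of all probes to no more than 0.042 and no less than 0.003 log2 units (0.050 as reported). Of 221 recomputed counts and medians, 212 kept their value within 1.5 times or within the typical error. With a step between 21 and 24 h in the fit 1 keratin probe rose linearly and the median linear change was -0.73. With the set of 4 arrays as a factor, 2 keratin probes fell (KRT17 and KRT86) and 0 rose (limma, 2 at an unadjusted p under 0.05, KRT15 and KRT9). The straight line is the only time term there, so these 2 were also its only time-dependent keratin probes, by the same test. The median was -0.92, and 10 of the 12 called probes kept their sign. This fit sees only changes within 9 h, gives them scaled to 45 h and has larger errors. With only probes detected on all 16 arrays, 2 keratin probes rose. Under cyclic loess 7 transcription factors had a linear trend, against 12.

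With each array left out in turn, 3 to 5 keratin probes rose (5 without the 45 h array), 9 to 10 fell, 13 to 17 were time-dependent, 8 to 14 were curved, and the median lay between -0.16 and -0.01. Between 7 (without the 3 h array) and 13 transcription factors had a linear trend. Signs changed for KRT19 under median scaling (-0.05), for KRT13 (-1.61), KRT40 (-0.28), KRT7 (0.01) and KRT9 (-0.11) with the step, and for KRT13 (-1.90), KRT40 (-1.02) and KRT5 (0.09) with the set as a factor. With arrays left out, estimates crossed 0 for the KRT18 probe ILMN_1730848 (-0.13 to 0.04), KRT14 (-0.25 to 0.09), KRT24 (-0.18 to 0.06), KRT7 (-0.16 to 0.04) and KRT9 (-0.01 to 0.26), none called as reported. KRT7 was past the threshold without the 42 h array (-0.16). The cause of these changes was not tested. No paired analysis was possible because time points are single arrays. Dim probes are limited by background and the brightest by the top of the scale.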
